A study of Homo sapiens with 5 samples.

Results

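TRIM16 and its paralog TRIM16L lie in duplicated segments of chromosome 17, and each held 1 NRF2 peak in sulforaphane-treated cells and 1 in vehicle-treated cells. The members were all peaks with their summit in chr17:15525000-15595000 (the TRIM16 window) or chr17:18595000-18645000 (the TRIM16L window), in hg19 coordinates. This gave 2 of the 1925 peaks of the sulforaphane (SFN) list and 2 of the 2199 peaks of the vehicle list, 4 of 4124 in all. The regions were picked by position with earlier results of these data known, and any peak had to pass the authors' caller to be listed, so heights, widths and folds are given as descriptions and without a test.

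The cells were BEAS-2B, an established human line from bronchial epithelium, and DNA bound by the transcription factor NRF2 was measured by chromatin immunoprecipitation and sequencing (ChIP-seq). The SFN group (2 samples) had received 10 µM D,L-sulforaphane for 5 h, the vehicle group (2 samples) 0.1% DMSO for 5 h, and both were precipitated with a rabbit monoclonal antibody against NRF2. A vehicle-treated sample precipitated with rabbit IgG (1 sample) completes the series of 5. Each treatment has 1 peak list, so no spread over replicates exists, and the labels do not name the cultures behind the samples of a group. The lists hold no expression values, so the labelled cell type could not be checked against marker genes.

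NRF2 is normally held in the cytoplasm by KEAP1 and degraded. Electrophiles such as sulforaphane modify KEAP1, and NRF2 then enters the nucleus, pairs with small MAF proteins and binds antioxidant response elements near genes for detoxification, glutathione and thioredoxin metabolism and iron handling. TRIM16 is a tripartite-motif protein with ubiquitin ligase activity although it lacks a RING domain, and it is known for its part in the autophagy of damaged lysosomes and in the handling of misfolded protein together with p62 and NRF2. TRIM16L is its shorter relative, which the RefSeq gene table of assembly GRCh38.p14 lists as a transcribed pseudogene, whereas TRIM16 is listed as protein-coding.

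The gene order in that table shows how the copies lie. Along chromosome 17, TVP23C and FBXW10B come before TRIM16, and ZNF286A and TBC1D26 come after it. Around TRIM16L the related genes stand in the opposite order, with TBC1D28 and ZNF286B before it and FBXW10 and TVP23B after it. The table was used for names and neighbours only, since it is in another build than the peaks. Whether the summits lie in an exon or an intron was therefore not determined here.

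In the SFN list both copies held a tall, isolated NRF2 peak of nearly the same height. Tags matching both copies may bear on these heights, which was not tested. The TRIM16 peak spanned chr17:15546128-15546627, with its summit at 15546315 and 143 tags there (exact Poisson 95% interval 121 to 168). The TRIM16L peak spanned chr17:18625074-18625566, with its summit at 18625365 and 152 tags (129 to 178). All intervals here cover counting error alone. The ratio of TRIM16L to TRIM16 was 1.06, with an exact 95% interval of 0.840 to 1.35, so a difference in height was not detectable at this depth. The widths were 500 bp and 493 bp, against a median of 234 bp over the SFN list.

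In vehicle-treated cells the same places held much smaller peaks, with equal tag counts at the copies. The TRIM16 peak at chr17:15546229-15546437 had 12 tags at its summit (exact Poisson 95% interval 6.20 to 21.0) and was 209 bp wide. The TRIM16L peak at chr17:18625221-18625447 also had 12 tags and was 227 bp wide. With 12 tags in each, the ratio of the copies was 1 with an exact 95% interval of 0.411 to 2.43, too wide to say that the copies are alike. Over the vehicle list the median was 6 tags and 158 bp.

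The lists rest on unequal depth. After the limit of 1 tag per position, 7448599 SFN tags and 1459665 vehicle tags were kept, a ratio of 5.10. These were 32.3% of 23090154 SFN tags and 12.8% of 11377334 vehicle tags, and the ratio of those totals was 2.03. The ratio of kept tags thus also holds a larger loss of vehicle tags at the limit. The control, an alignment whose name carries input and IgG, had 28125771 kept tags. At equal height per kept tag, the 143 and 152 SFN tags would correspond to 28.0 and 29.8 vehicle tags, and 12 were listed at each copy. Expressed per 1000000 kept tags, TRIM16 stood at 19.2 (16.2 to 22.6) in the SFN list and 8.22 (4.25 to 14.4) in the vehicle list. TRIM16L stood at 20.4 (17.3 to 23.9) and 8.22 (4.25 to 14.4). The counting intervals of the treatments did not overlap at either copy, but they hold no spread over replicates and are no test of the treatments. Whether the copies share tags was not tested, so they do not count as separate checks.

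The SFN to vehicle ratio per kept tag was 2.34 at TRIM16, with an exact 95% interval of 1.30 to 4.63. At TRIM16L it was 2.48 (1.38 to 4.91). With the tags of both copies summed, 295 against 24, the ratio was 2.41 (1.59 to 3.82). Such a sum is free of which copy a tag matching both was assigned to only if the summits are matching bases, which was not determined here. The limit of 1 tag per position, and any tags left out for matching both copies, would also bear on it. The scale sets the size: divided by all tags before the limit of 1 per position, the ratios were 5.87 and 6.24. That scale sets heights after the limit against totals before it. Both treatments of depth gave a higher level in the SFN list at both copies, but without replicate values the difference between treatments has no replicate check.

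**Figure D1:**
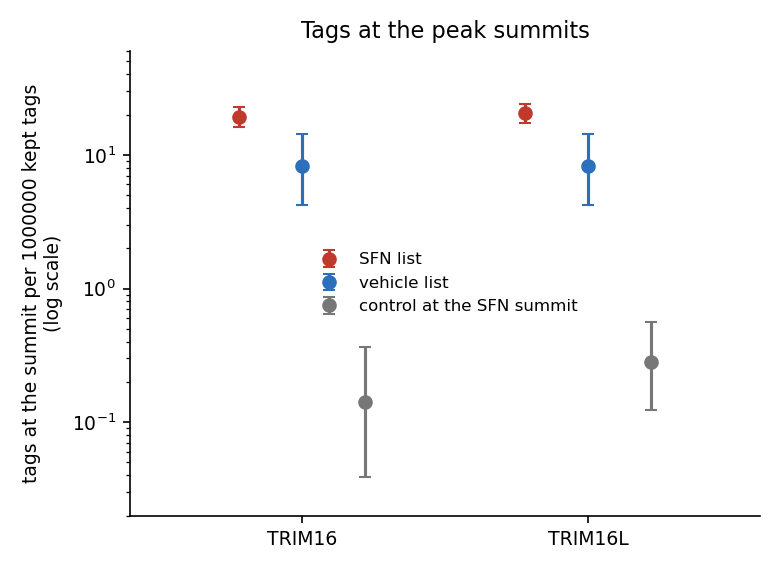
Tags at the peak summit per 1000000 kept tags (log axis) at TRIM16 and TRIM16L, in the SFN list, the vehicle list and the control at the SFN summit. Points are single values and bars exact Poisson 95% intervals of the counts; SFN stands at 19.2 and 20.4, vehicle at 8.22 in both copies, and the control at 0.142 and 0.284.

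Whole numbers of control tags at these summits could be computed back from the caller's fold and pileup. Around the SFN summit of TRIM16 there were 4 control tags in a window of the fragment length (exact Poisson 95% interval 1.09 to 10.2), or 0.142 per 1000000 kept tags. At TRIM16L there were 8 (3.45 to 15.8), or 0.284 on the same scale. The genome average at this depth is 1.59 control tags, so the control stood at 2.51 and 5.02 times that average. Per kept tag, the SFN pileup was thus 135 times the control at TRIM16 (exact 95% interval 51.6 to 502) and 71.7 times at TRIM16L (35.5 to 169). At the vehicle summits the control held 5 and 8 tags, against a median of 3.26 over the vehicle list and 13 over the SFN list, and the vehicle pileup was 46.2 times (15.2 to 168) and 28.9 times (10.9 to 81.5) the control. Standing above the control is what the caller required of every listed peak, so these ratios describe the members and test nothing.

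The authors' own fold over the control, as their caller gave it, separated the copies more than the tags did. In the SFN list it was 69.9 at TRIM16 and 49.1 at TRIM16L, although TRIM16L had more tags. The fold of TRIM16 would be 46.2 with the control level of TRIM16L in its place. The control tags behind that gap, 8 against 4, had a ratio of 2 with an exact 95% interval of 0.536 to 9.08, so a difference in control between the copies was not detectable at these counts. In the vehicle list the folds were 10.3 and 9.19.

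Both members stood near the top of the SFN list when ranked against the control, and less so by height. By fold, TRIM16 was the peak in place 2 of 1925 and TRIM16L that in place 6, and on chromosome 17, with 74 SFN peaks, they held places 1 and 2. By tags at the summit they were in places 45 and 41. The peaks of like height lay elsewhere on the control axis. Of the 47 SFN peaks with at least the 143 tags of TRIM16, the median control was 150 tags, and 3 (6.38%) had 8 control tags or fewer: TRIM16, TRIM16L and chr16:88366742-88367282, with 162 tags. Over all 1925 SFN peaks, 868 had 8 control tags or fewer, so a control this low is common in the list. The limits of 143 tags and 8 control tags are the members' own values and were set after they were seen.

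The 5 other SFN peaks nearest to each member in height show the same. For TRIM16 they had 141 to 149 tags, folds from 3.73 to 28.6 and control levels from 15 to 143 tags. For TRIM16L they had 149 to 157 tags, folds from 3.03 to 4.98 and control levels from 110 to 193 tags. The 4 and 8 control tags at the members are low against these tall peaks.

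**Figure D2:**
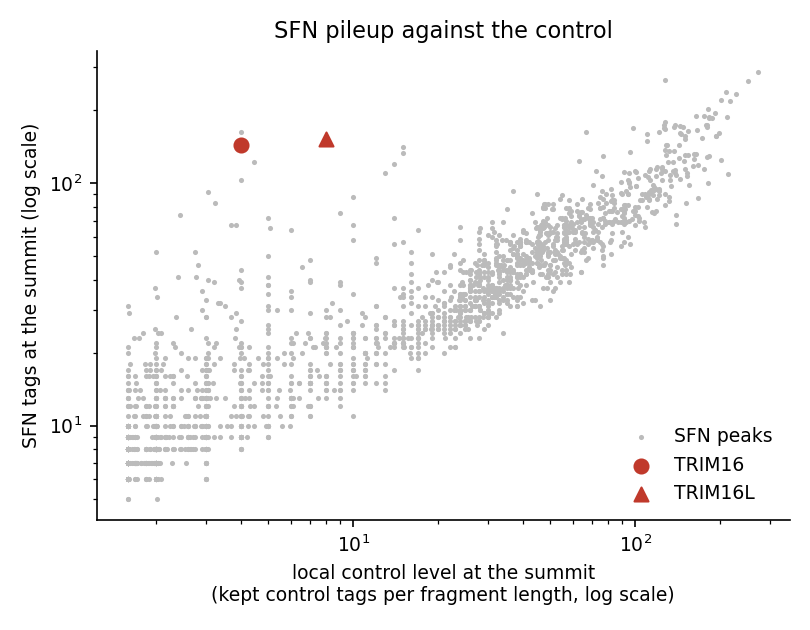
SFN tags at the summit against the local control level in kept control tags per fragment length (both axes log), for all 1925 SFN peaks (grey), TRIM16 (circle) and TRIM16L (triangle). Most peaks of over 100 tags lie at the right, where the control is high, and the members lie at 4 and 8 control tags with 143 and 152 SFN tags.

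In the vehicle list the members were less prominent, in places 114 and 192 of 2199 by fold, while 732 peaks had more tags than either. Here too, peaks of their height were mostly in places with a high control. Of the 774 vehicle peaks with 12 tags or more, 16 (2.07%) had 8 control tags or fewer. Both limits are the members' own values, so the members are among these peaks by construction. The median control over all 2199 vehicle peaks was 3.26 tags, below the 5 and 8 at the members.

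Both members were called in both treatments. Overlap by at least 1 bp was found for 37.9% of all SFN peaks and 34.9% of all vehicle peaks, but for 55 of the 868 SFN peaks (6.34%) at a control of 8 tags or fewer. How common the direction of their difference was depended on the scale. Of the 730 SFN peaks that overlapped a vehicle peak, 15 (2.05%) had more tags per kept tag in the SFN list than in the vehicle list, and the median ratio was 0.437. Scaled by all tags before the limit of 1 per position, 422 of the 730 (57.8%) were higher in the SFN list, with a median ratio of 1.10. Among the 55 shared peaks at a control of 8 tags or fewer, 11 (20%) were higher per kept tag, with a median ratio of 0.470. TRIM16L ranked 5 and TRIM16 ranked 6 by the ratio, both among the 730 and among these 55, and a scale common to all peaks does not change these ranks. Per kept tag, the 4 peaks above them had ratios from 3.17 to 4.07 and 4 to 10 vehicle tags, and the 9 below them that also exceeded 1 had ratios from 1.01 to 1.83. These ranks describe peaks called in both lists, and peaks without a vehicle call have no ratio.

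**Figure D3:**
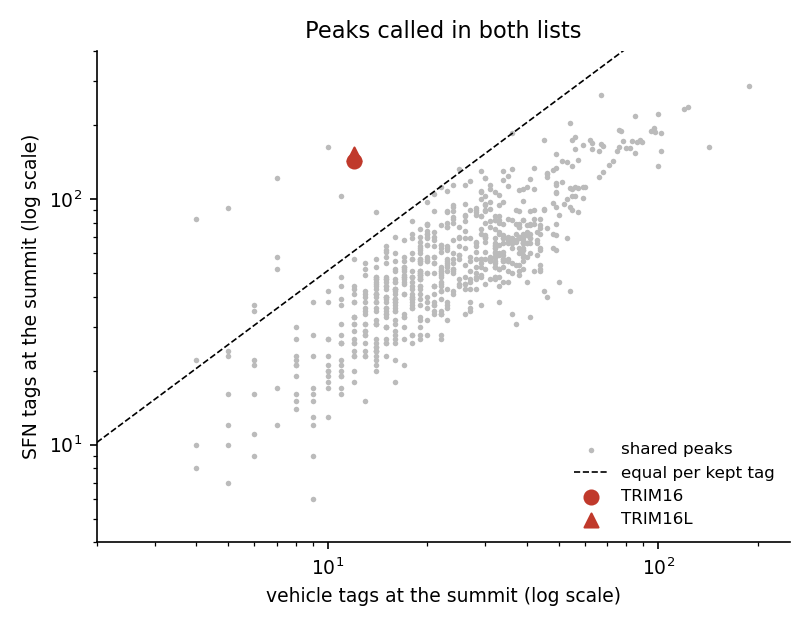
SFN tags against vehicle tags at the summits of the 730 SFN peaks that overlap a vehicle peak (both axes log, with the vehicle peak of greatest overlap). The dashed line marks equal height per kept tag; TRIM16 (circle) and TRIM16L (triangle) lie above it at 12 vehicle tags, and 15 peaks in all do.

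The shapes of the peaks were close to mirror images between the copies. At TRIM16 the SFN summit lay 187 bp from the lower end of the peak and 312 bp from the upper end. At TRIM16L it lay 291 bp from the lower end and 201 bp from the upper end. Compared in the direction of the chromosome, the arms differed by 104 and 111 bp, and with TRIM16L turned around by 14 and 21 bp. The error of these ends was not determined. The gene order around the copies is also opposite, as given above, and a link between it and the shapes was not tested.

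The vehicle peaks, called from the vehicle tags against the same control, had the same handedness. Tags matching both copies could bear on the shapes in both lists, which was not tested. They rest on 12 tags at each summit, and the error of their ends was not determined. Their arms were 79 and 129 bp at TRIM16 and 149 and 77 bp at TRIM16L. The differences were 70 and 52 bp in the direction of the chromosome and 2 and 20 bp with TRIM16L turned around. Each vehicle peak lay wholly inside the SFN peak of its copy. Its summit was 7 bp below the SFN summit at TRIM16 and 5 bp above it at TRIM16L, which is the same side once one copy is turned. The median distance between summits was 41 bp over the 730 shared peaks, and 30.7% of them were within 7 bp. Over the 55 at a control of 8 tags or fewer the median was 19 bp, and 27.3% were within 7 bp.

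The members were more lopsided than most SFN peaks of 30 tags or more at a low control, but not the most lopsided. Over the 49 SFN peaks with 30 tags or more and 8 control tags or fewer, the summit lay at 46.5% to 55.4% of the peak's length (interquartile range). TRIM16 was at 37.5% and TRIM16L at 59.1%, outside that range on opposite sides. They lay 12.5 and 9.15 percentage points from the middle, against a median of 4.52, and ranked 7 and 13 of the 49 by this distance. In width they ranked 8 and 9 of these, whose median was 318 bp. The limit of 30 tags was chosen after the data were seen.

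**Figure D4:**
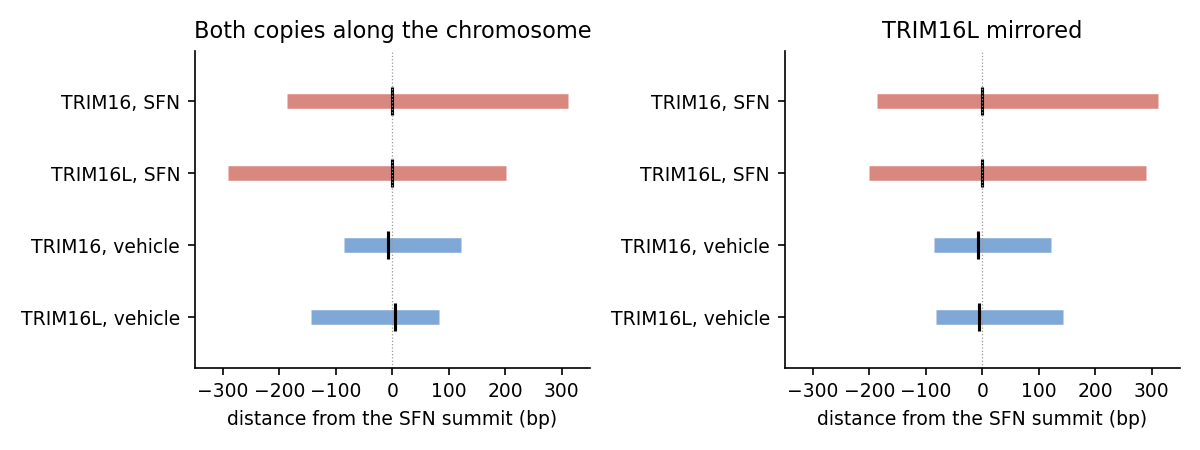
Extent of the 4 peaks (bars) and their summits (black marks), in bp from the SFN summit of the same copy, along the chromosome (left) and with TRIM16L mirrored (right). The longer arm points up the chromosome at TRIM16 and down it at TRIM16L, and on mirroring the SFN arms come within 14 and 21 bp.

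The limit of 1 tag per position bears on the SFN heights. With fragments of 153 bp, at most 306 tags can cover a base, and TRIM16 reached 46.7% of this and TRIM16L 49.7%. In the vehicle list the 12 tags were 3.90% of a possible 308. A correction for distinct fragments that share a start, with starts spread evenly, would raise the SFN heights to 193 and 210 and the vehicle heights to 12.2. The SFN to vehicle ratios per kept tag would then be 3.09 and 3.36, inside the counting intervals given above. These ratios set corrected heights against tags kept after the limit. The correction does not cover the whole loss, since 32.3% of all SFN tags and 12.8% of all vehicle tags were kept. The heights before the limit are therefore not known.

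Reads that match both copies could not be followed. Tags were 36 bp long, the sources used here do not say how the aligner placed tags with several matches, and a genome sequence of hg19 was not used. The sequence identity of the peak regions, the share of tags exchanged between the copies and its part in the heights and shapes given here were not tested. The summits lay 3.08 Mb apart, so no fragment spans both.

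No other peak of either list lay in the windows, and none was added by widening them by 50 kb on each side. The nearest SFN peaks to TRIM16 were 5.81 Mb below and 2.33 Mb above it, with 14 and 13 tags. Those nearest to TRIM16L were 749 kb below and 340 kb above it, with 13 and 15 tags. In the vehicle list the nearest peaks were 286 kb below TRIM16 (5 tags) and 692 kb below TRIM16L (4 tags). Each copy thus had a single called site.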

How the data were processed

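Samples were grouped by treatment and antibody from their titles. Per the submitters' processing notes, CASAVA 1.4, BWA, MACS2 and hg19 were used. Peaks were called with MACS 2.1.0.20140616 against a control named for input and IgG, at a q cutoff of 0.05, with 1 tag kept per position and fragments of 153 bp (SFN) and 154 bp (vehicle, whose alignment is named NT), per the file headers. Whether samples were pooled is not stated in these sources. The deposited signal is the tag pileup at the summit, the deposited ratio is the fold over the local control, and −log10 p and −log10 q values are as deposited by the authors.

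The control level was computed back as (pileup + 1)/fold − 1, and divided by the ratio of kept tags to give control tags. It is the caller's highest local level, and a whole number (within 0.01 tag) for 63.7% of SFN and 55.6% of vehicle peaks. Ratios have exact (Clopper-Pearson) and heights exact Poisson 95% intervals. Scripts (Python 3.11.15, SciPy 1.17.1) were tested on simulated data. Named were the members, their neighbours and the 5 SFN peaks nearest in height; other named peaks were picked with their values in view. The members and lists were chosen with earlier results of these data known. Planned results that need a genome, annotation or protein sequence of the members (peak sequence, its motifs, peaks near other NRF2 genes, protein identity) were not run.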

Additional observations from a re-analysis of the deposited data

How the results depend on the processing

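Of 25 alternative values, 14 stayed within the counting interval or within 1.5 times the reported count. A counting interval does not measure changes of processing. For the vehicle ratio of the copies it ran from 0.411 to 2.43, so staying inside it says little. The 4 member peaks stayed 4 with wider windows and with only peaks at a q up to 1e-05. The TRIM16L to TRIM16 ratio of 1.06 in the SFN list became 0.702 when the fold over control replaced the pileup, through the 8 against 4 control tags. Scaled by all tags, the SFN to vehicle ratio was 5.87 at TRIM16 and 6.24 at TRIM16L, and scaled by the median of all shared peaks 5.35 and 5.68. The members shared between the lists fell from 2 to 0 when 50% of both peaks had to overlap, since the vehicle peaks are 41.8% and 46.0% as wide as the SFN peaks. TRIM16 moved from place 2 by fold to place 45 by pileup and 1 on chromosome 17. TRIM16L moved from place 6 by fold to 41 by pileup, 3 by −log10 p and 2 on chromosome 17. The correction for 1 tag per position and the scaling of all shared peaks by all tags were added after the data were seen. No paired analysis was possible because the 2 lists carry no replicate numbers, and no replicate could be left out. At 12 tags per copy, depth limits the vehicle values.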

Other observations

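The core of the antioxidant response element, TGACNNNGC, was searched on both strands in RefSeq promoters of GRCh38.p14, from 250 bases before to 50 after each start. It was found in 4687 of 35116 promoters (13.3%). The TRIM16 promoter in that table did not hold these letters, which says nothing of the peak, whose place relative to that start was not determined here.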
